A study of Sus scrofa with 24 samples.

Results

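Cell division genes and the chromatin gene HMGA1, 10 genes in all, were followed in pig liver: MCM2, MCM3, MCM4, CDK1, CCNB2, TOP2A, PCNA, MKI67, RRM2 and HMGA1. The array's gene name, description and accession columns were searched for these 10 genes, and 8 had a probe. MCM2 and RRM2 were not analysed here. In all, 14 oligonucleotide probes carried the name of 1 of the genes, among 43603 probes read, of which 29665 were bright enough to be tested. The tested probes named 4387 genes. The 10 genes had been chosen by their difference in level between restricted and freely fed pigs of the high RFI line on these same arrays, so that difference is described below without a test.

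Liver RNA came from 24 Sus scrofa pigs at 115 kg body weight, 8 per group, with 1 array per pig. Residual feed intake (RFI) is the feed an animal eats beyond what its growth and upkeep predict. RFIneg pigs had low RFI and ate ad libitum. RFIpl pigs had high RFI and also ate ad libitum, and RFIplR pigs had high RFI but were held to the amount of feed eaten by RFIneg pigs. All groups shared tissue and body weight, and 150 ng of total RNA per pig was labelled with Cy3. Each pig is 1 animal sampled once, so the spread within a group holds both differences between animals and the error of 1 array. In whole liver, fewer dividing cells and less RNA per dividing cell cannot be told apart.

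MCM proteins form the helicase that is loaded on replication origins and unwinds DNA in S phase, and PCNA is the ring that clamps DNA polymerase to the template. CDK1 bound to a B cyclin such as that encoded by CCNB2 drives entry into mitosis, TOP2A untangles sister chromosomes, and Ki-67, encoded by MKI67, coats mitotic chromosomes. RNAs of these genes are made mainly in cycling cells, and most adult hepatocytes are quiescent. HMGA1 is different in kind: it encodes a small chromatin protein that binds AT-rich DNA, is abundant in embryonic and tumour cells, and is not itself part of the division machinery.

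The following probe sequences are printed because the results turn on which oligonucleotide reads which gene. The first 2 are HMGA1 probes that moved together from pig to pig while another HMGA1 probe did not. The CDK1, CCNB2 and PCNA probes belong to the genes that moved together, and the last one is the only probe that the array describes as Ki-67. The CDK1 sequence is that of a second probe, while CDK1 levels and correlations below rest on A_72_P293014 unless stated. A_72_P073331, the brightest HMGA1 probe, is not printed either.
HMGA1 A_72_P443746: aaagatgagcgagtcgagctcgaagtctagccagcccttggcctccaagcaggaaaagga
HMGA1 A_72_P706134: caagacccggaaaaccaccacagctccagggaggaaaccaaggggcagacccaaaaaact
CDK1 A_72_P440916: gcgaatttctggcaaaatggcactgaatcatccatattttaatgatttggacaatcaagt
CCNB2 A_72_P440521: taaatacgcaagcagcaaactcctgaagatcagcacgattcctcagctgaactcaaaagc
PCNA A_72_P552916: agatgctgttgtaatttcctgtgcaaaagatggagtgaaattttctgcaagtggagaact
MKI67 A_72_P204882: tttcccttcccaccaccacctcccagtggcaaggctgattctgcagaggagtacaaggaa
Each is a 60-base oligonucleotide given 5′ to 3′ as in the scanner output. Genome positions were not analysed here.

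The scanner called 63.2% to 72.7% of an array's spots well above background. The 24 arrays lay on 6 slides read on 2 scan days, and every slide and both days held all 3 groups. Hepatocyte markers were bright, with a mean log2 level of 7 markers between 7.41 and 7.74 on every array. Precision is limited by the 8 arrays per group. Levels are log2 signal after subtraction of each array's 75th percentile, and they are compared between pigs for 1 probe, not between probes.

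The measured division genes differed widely between pigs of the same group. MCM3, MCM4, CDK1, CCNB2 and TOP2A varied together from pig to pig, and PCNA followed them with a smaller range. HMGA1 was not detectably correlated with them, nor was the probe described as Ki-67, whose identity rests on similarity to the dog protein. With the group means removed, all 10 pairs among the first 5 genes were correlated over the 24 pigs. None of the chosen genes that were measured passed the test for a difference between RFIneg pigs and either high RFI group.

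Of the replicative helicase, 2 of 3 listed subunits were measured. MCM3 (probe A_72_P055841) ranged from -5.32 through a median of -3.97 to -2.63 in RFIneg, from -4.03 through -3.35 to -2.78 in RFIpl, and from -4.99 through -4.37 to -2.39 in RFIplR. MCM4 (A_72_P065586) ranged from 0.40 through 1.28 to 2.12 in RFIneg, from 0.72 through 1.35 to 2.07 in RFIpl, and from -0.46 through 0.61 to 2.23 in RFIplR. For both subunits RFIplR held the highest pig of the study, pig 5, although its median was the lowest of the 3 groups. The groups overlapped widely.

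PCNA (A_72_P552916), the polymerase clamp, had a narrower range. It ran from -1.79 through -1.40 to -0.92 in RFIneg, from -1.78 through -1.46 to -1.14 in RFIpl, and from -1.86 through -1.63 to -1.15 in RFIplR. Its lowest and highest pigs differed by 1.92-fold.

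The mitotic kinase gene CDK1 (A_72_P293014) had the widest range of the 8 genes. It ran from -2.50 through -1.73 to -0.53 in RFIneg, from -2.37 through -1.17 to -0.74 in RFIpl, and from -3.42 through -2.26 to -0.07 in RFIplR. Both extremes were RFIplR pigs, pig 7 and pig 5, which differed by 10.2-fold although they shared line and feeding level. A second CDK1 probe, A_72_P440916, gave nearly the same order of pigs (Pearson's r = 0.988, Spearman's rho = 0.967, 24 pigs, adjusted permutation p = 2.6e-05 for both).

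CCNB2 (A_72_P440521), encoding cyclin B2, was dim. It was well above background in 3 of 8 RFIneg, 8 of 8 RFIpl and 4 of 8 RFIplR pigs, and it therefore entered the test only through the RFIpl group. Its level ran from -5.78 through -5.03 to -3.90 in RFIneg, from -5.16 through -4.33 to -3.91 in RFIpl, and from -5.71 through -5.23 to -3.52 in RFIplR. A further CCNB2 probe, A_72_P775809, was well above background in 0, 3 and 3 pigs of these groups and was not tested. Its differences in measured signal were 0.59 in RFIpl minus RFIneg, 0.60 in RFIplR minus RFIneg and 0.013 in RFIplR minus RFIpl. Those of A_72_P440521 were 0.47, -0.055 and -0.53, so the 2 probes had opposite signs in both comparisons with RFIplR.

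TOP2A (A_72_P440301), encoding topoisomerase II alpha, ran from -3.85 through -3.09 to -1.84 in RFIneg, from -3.45 through -2.76 to -2.10 in RFIpl, and from -4.57 through -3.27 to -1.59 in RFIplR. As with CDK1, RFIplR pig 7 was lowest and RFIplR pig 5 highest.

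The probe described as Ki-67 (A_72_P204882) hardly varied. It ran from -0.57 through -0.37 to -0.06 in RFIneg, from -0.55 through -0.32 to -0.03 in RFIpl, and from -0.54 through -0.38 to -0.31 in RFIplR, a 1.45-fold range over all pigs. Its only link to MKI67 was a description by similarity to the dog protein, and whether it reads MKI67 RNA was not tested. Both probes that carry MKI67 in the gene name column, A_72_P441843 and A_72_P137636, bear an accession that RefSeq (Sscrofa11.1) assigns to NIFK, a nucleolar partner of Ki-67 for which MKI67 is listed as a synonym. They were therefore read as NIFK and not as MKI67.

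**Figure D1:**
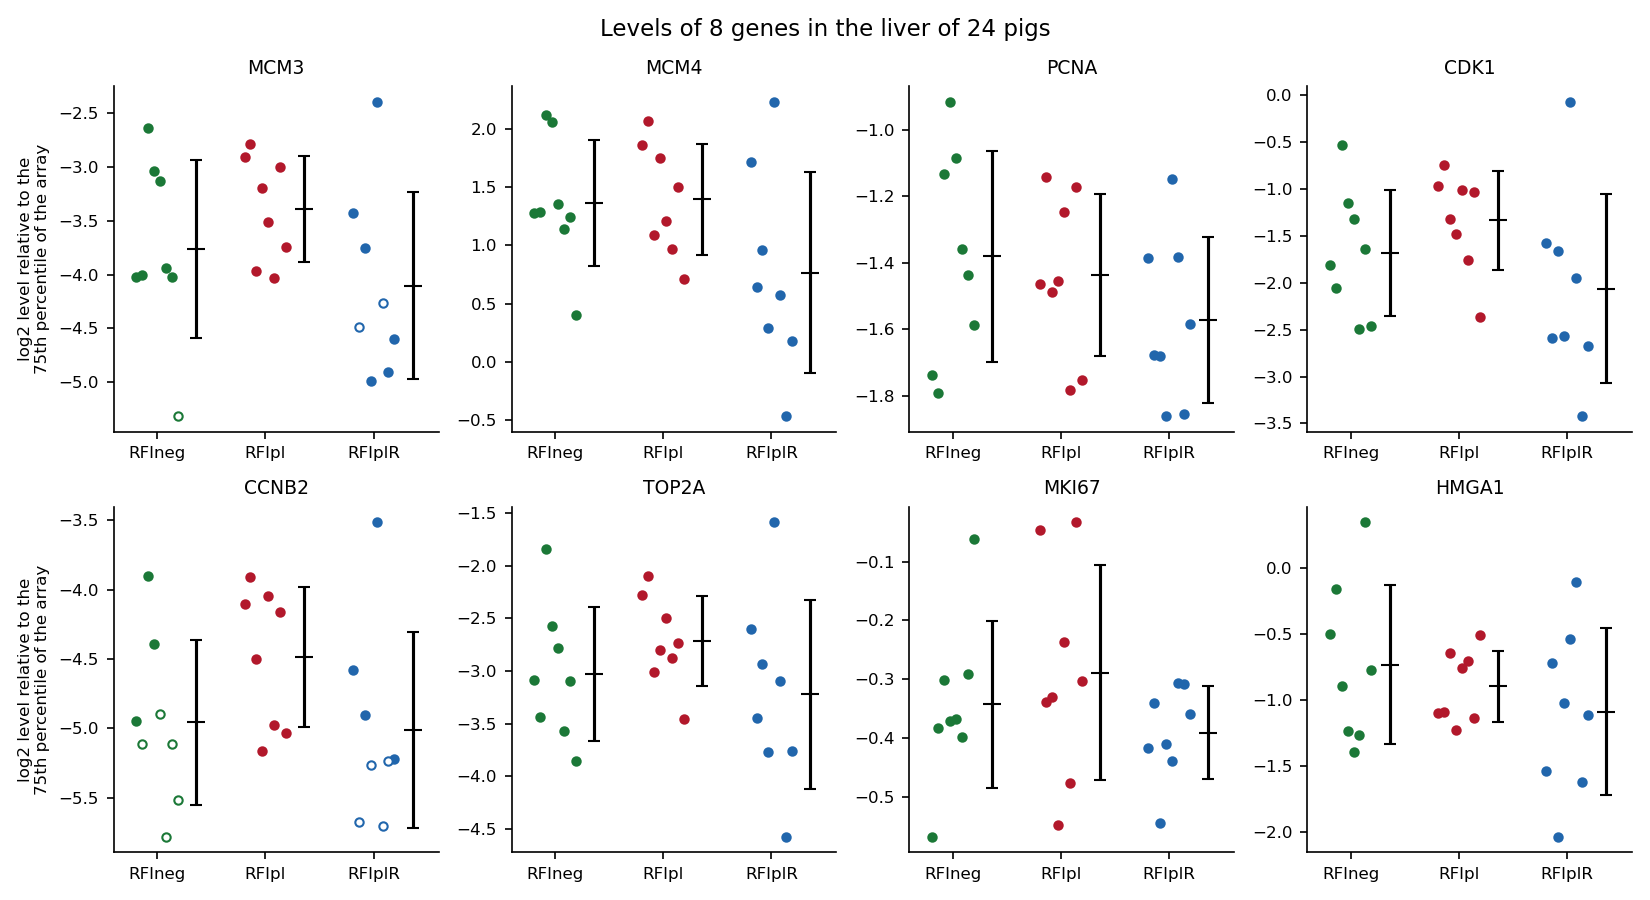
Levels of 8 genes, 1 panel per gene, in log2 units relative to the 75th percentile of each array, with 1 point per pig, open where the spot was not well above background, and a bar for the mean and SD of the 8 pigs of a group; vertical scales differ between panels. RFIplR pig 5 is the highest of all pigs for MCM3, MCM4, CDK1, CCNB2 and TOP2A, and the groups overlap for every gene shown.

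The spread within groups was large for the division genes against the rest of the array. The pooled within-group SD was 0.76 for CDK1, 0.75 for MCM3, 0.68 for TOP2A, 0.65 for MCM4 and 0.61 for CCNB2, where the median probe had 0.27. These SDs exceeded those of 96.2%, 96.0%, 94.6%, 93.8% and 92.4% of the tested probes. MCM3 was well above background in 21 of 24 pigs and CCNB2 in 15 of 24. Both were ranked against all tested probes and not against probes of like signal, so the part of dimness in their spread was not tested. PCNA, at 0.27, exceeded 50.7%, and the Ki-67 probe, at 0.14, exceeded 7.31%.

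The same pigs were high or low for all of the variable genes. RFIplR pig 5 ranked first of 24 in each of MCM3, MCM4, CDK1, CCNB2 and TOP2A, RFIneg pig 3 came next, at rank 2 in each, and RFIpl pig 2 followed at rank 3. RFIplR pig 7 ranked between 19 and 24. The 3 highest pigs therefore came from 3 different groups. The low end was less mixed: the lowest mean ranks, from 18.8 to 22.6, were those of RFIplR pigs 2, 4, 6, 7 and 8 and RFIneg pig 8.

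Correlations were computed on levels with the group means removed, over 24 pigs and 28 pairs of genes, with p-values from 100000 permutations of pigs within groups and Benjamini-Hochberg adjustment over the pairs. By Pearson's r, 15 of 28 pairs passed an adjusted p of 0.05, and by Spearman's rho 15. The grouping of genes used here was made after the pairs were seen. All 10 pairs among MCM3, MCM4, CDK1, CCNB2 and TOP2A passed, with r between 0.742 and 0.972 (median 0.883), rho between 0.705 and 0.969 and adjusted permutation p for r of at most 0.000259. Under normexp background correction 8 of these 10 pairs passed, and the lowest r was 0.131.

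CDK1 and TOP2A were the closest pair, with r = 0.972 and rho = 0.969 (adjusted permutation p = 4e-05 for both, from an unadjusted 1e-05, the smallest that 100000 permutations can give). Without RFIplR pigs 5 and 7, the 2 farthest from the CDK1 median, r was 0.952. It was 0.982, 0.903 and 0.987 within RFIneg, RFIpl and RFIplR pigs, 0.951 on scan day 1 and 0.982 on scan day 2. The relation was thus present in each line and feeding level.

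Across the 10 pairs, r without the 2 farthest pigs lay between 0.642 and 0.952. The lowest r on scan day 1 was 0.485, for MCM4 with CCNB2, and the lowest on scan day 2 was 0.864. PCNA was correlated with each of the 5 genes, with r from 0.623 to 0.755 and adjusted permutation p of at most 0.00405. Its pairs kept r of 0.517 to 0.745 without the 2 farthest pigs.

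HMGA1 and the probe described as Ki-67 passed with none of these genes. The Ki-67 probe had r between -0.20 and 0.080 with the 5 genes (smallest adjusted permutation p = 0.516). HMGA1, by its brightest probe, had r between -0.20 and 0.0050 (smallest adjusted permutation p = 0.642). Without the 2 farthest pigs these values lay between -0.45 and -0.31, and on scan day 1 they reached -0.55. Within the 8 RFIpl pigs r was -0.85 with MCM3 and -0.90 with MCM4, and within the 8 RFIplR pigs 0.10 and 0.15, values given as a description without a test. The NIFK probes had r = 0.174 and 0.062 with CDK1 (adjusted permutation p = 0.735 and 0.922 over 13 probes). The dim second CCNB2 probe, at r = 0.181 (adjusted permutation p = 0.769), did not follow CDK1 either, where the first CCNB2 probe had r = 0.856.

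**Figure D2:**
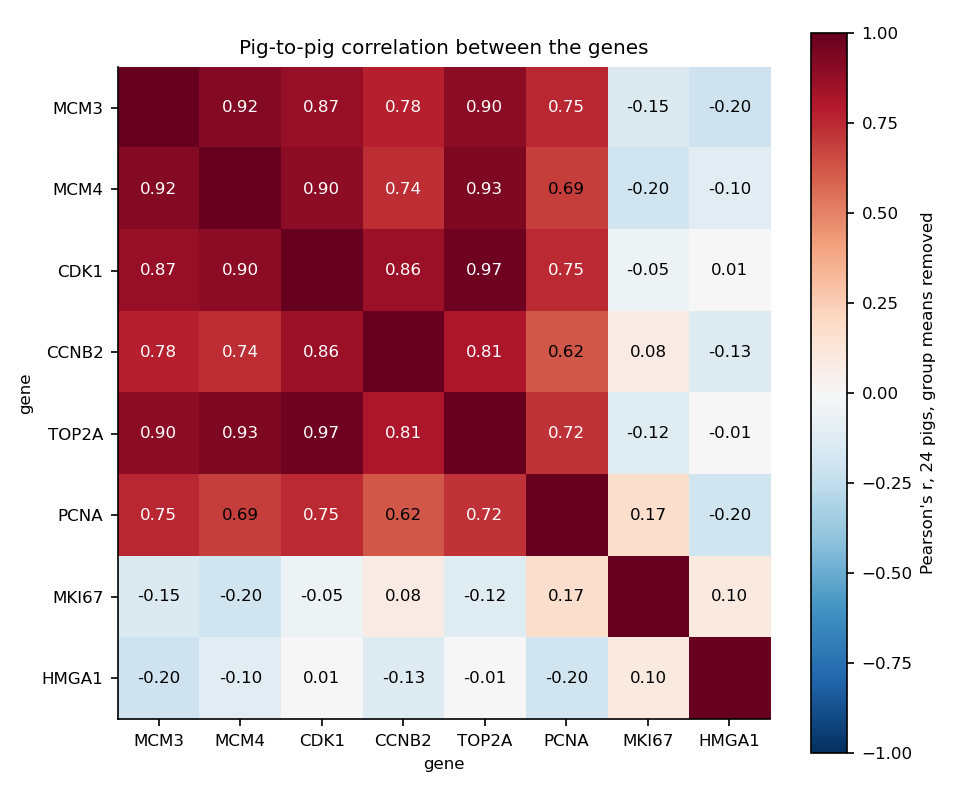
Pearson's r for each pair of the 8 genes over 24 pigs after subtraction of group means, on a colour scale from -1 to 1. The block of MCM3, MCM4, CDK1, CCNB2 and TOP2A holds values from 0.742 to 0.972, PCNA follows at 0.623 to 0.755, and the MKI67 and HMGA1 rows lie near 0. MKI67 stands for the probe described as Ki-67.

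**Figure D3:**
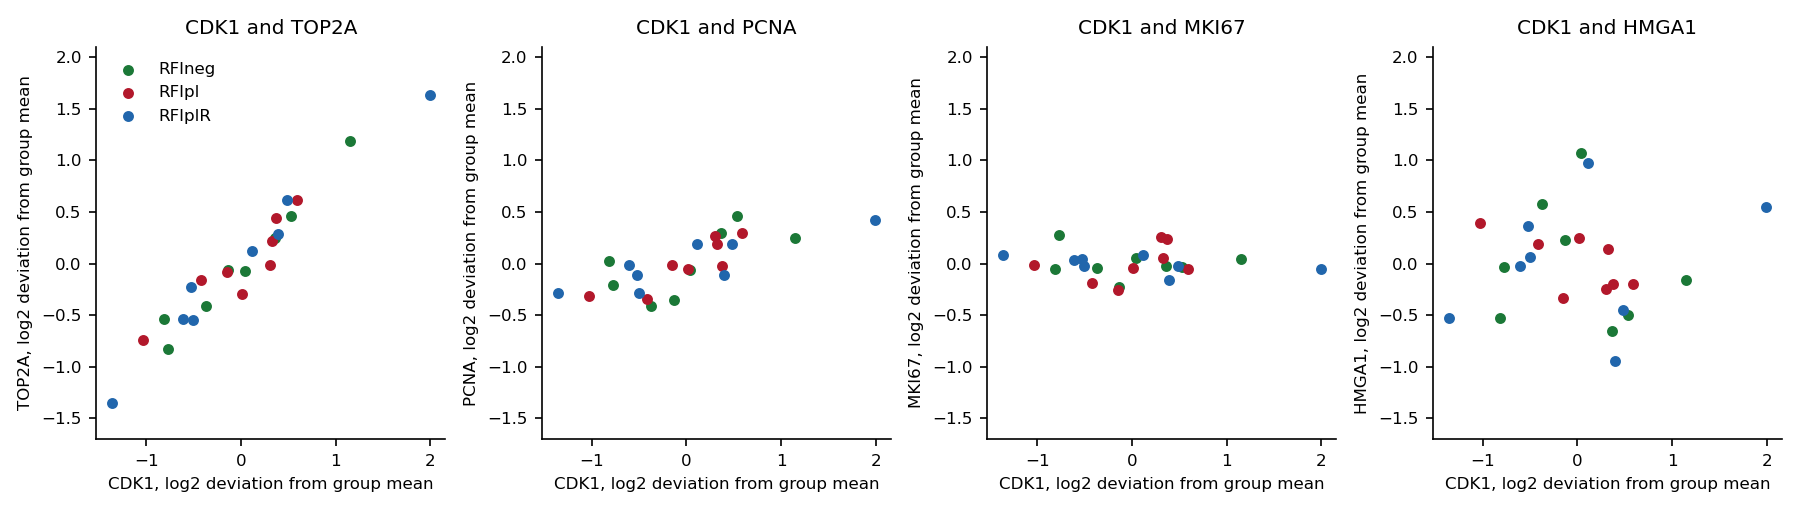
Deviation of each pig from its group mean, in log2 units, for CDK1 on the horizontal axis and TOP2A, PCNA, MKI67 or HMGA1 on the vertical axis, all on the same vertical scale, with 1 point per pig coloured by group. TOP2A follows CDK1 closely (r = 0.972), PCNA follows with a smaller slope (r = 0.747), and MKI67 and HMGA1 show no such trend. MKI67 stands for the probe described as Ki-67.

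Genes beyond the chosen ones also varied with CDK1. When CDK1 was set against all 4295 other named genes with complete values, 39 were correlated with it at an adjusted permutation p below 0.05, or 0.908%, each of them positively. This comparison was added after the data were seen. With a negative r 0 genes passed, where 110 had an unadjusted permutation p below 0.05, and 7.4% of all 4295 genes had one in either direction. With the background corrected by normexp, or with slide as a block, 2 genes passed with a negative r. With 1 pig left out, up to 2 did in 5 of 24 cases. The 39 comprised MCM3, MCM4, CCNB2, TOP2A and PCNA, 18 of 56 other genes of the cell cycle lists and 16 further genes. Of these last, the mitotic kinesin KIFC1 (r = 0.968) and the separase gene ESPL1 (0.956) were closest, and the complement gene C9 had the lowest r, 0.532.

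Among replication genes outside the chosen ones, 1 of 4 helicase and licensing genes passed. This was MCM5, another helicase subunit, at r = 0.864 (adjusted permutation p = 0.00172). MCM6, which belongs to the same ring, had r = 0.589 (adjusted permutation p = 0.512), and DBF4, the activator of the CDC7 kinase, had r = 0.176. Of 6 genes for DNA synthesis and its precursors, TK1, the thymidine kinase of S phase, had r = 0.926, and PRIM1, a primase subunit, had r = 0.762. The replication factor genes RFC1, RFC4 and RFC5 had r of 0.439, -0.20 and 0.278 and did not pass.

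Many mitotic genes were among those that passed. Of 10 mitotic kinases, cyclins and regulators, 5 passed: PTTG1 (securin) at r = 0.961, the kinase AURKA at 0.944, CCNB1, encoding the other main mitotic cyclin, at 0.921, CDC20, an activator of the anaphase-promoting complex, at 0.882, and BIRC5 (survivin) at 0.726. AURKB, at r = 0.092, and PLK1, at 0.494, did not pass. Of 13 genes of chromosome structure, spindle and cytokinesis, 9 passed, which is 69.2%. They included the kinesin KIF4A at 0.957, the spindle factor TPX2 at 0.930, the condensin subunit SMC4 at 0.914, and the kinetochore genes NUF2, SPC25 and NDC80 at 0.894, 0.888 and 0.821. TACC3 and H2AFZ, at 0.624 and 0.618, did not pass, and neither did KIF20A and PRC1, at -0.14 and -0.32.

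No gene of the G1 list passed against CDK1. Of 10 G1 cyclins, kinases and transcription factors, 0 passed and 1 had an unadjusted permutation p below 0.05, with r from -0.26 to 0.609, where MYBL2 was highest, and CDK4, the G1 kinase, stood at 0.0069. Of 10 cell cycle inhibitors only CDKN3, a phosphatase acting on CDKs, passed (r = 0.801), and the median of the list was -0.29. CDKN1A, the p21 inhibitor, had r = -0.083. Of 3 other high mobility group genes, 0 passed and 2 had an unadjusted permutation p below 0.05, with HMGB2 at 0.475 and HMGN4 at 0.656. In the other lists an unadjusted permutation p below 0.05 was reached by 3 of 4 licensing genes, 2 of 6 DNA synthesis genes, 7 of 10 mitotic regulators, 11 of 13 chromosome and spindle genes and 3 of 10 inhibitors.

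**Figure D4:**
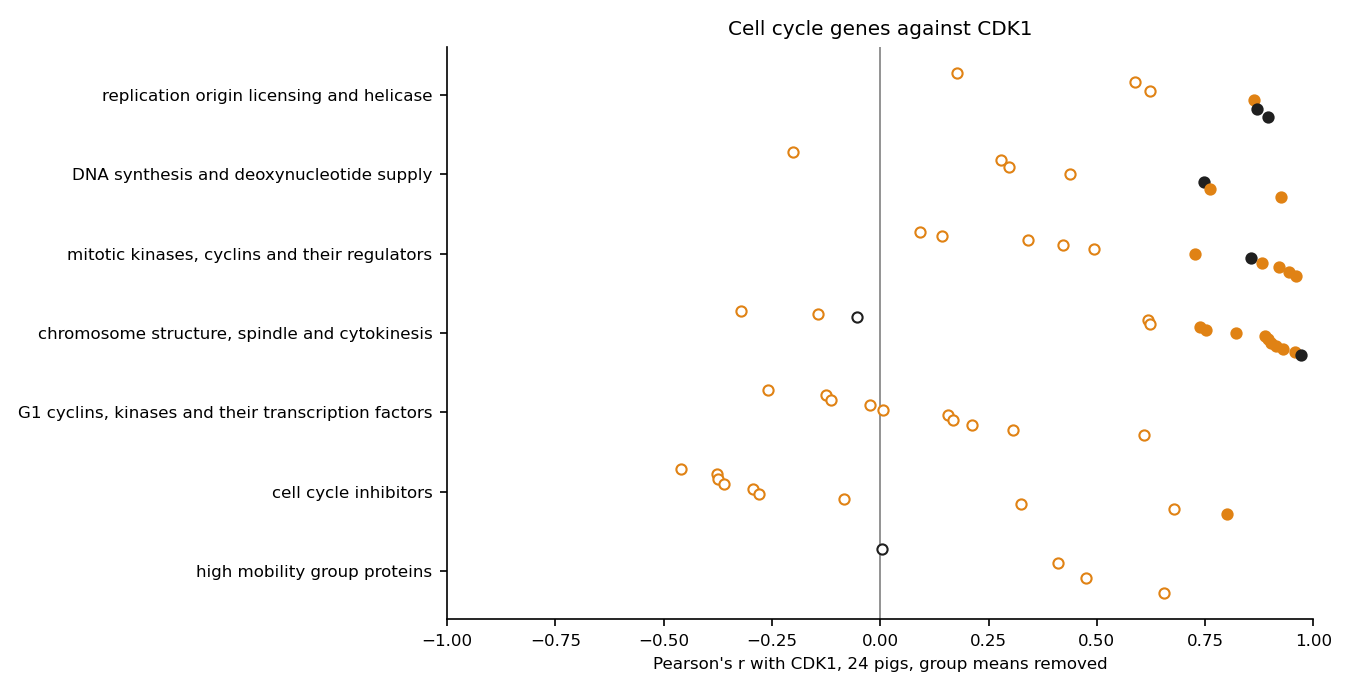
Pearson's r with CDK1 over 24 pigs, group means removed, for the measured genes of 7 cell cycle lists, with 1 point per gene, black for the chosen genes and orange for the others, filled where the adjusted permutation p was below 0.05. Filled points lie in the replication, mitosis and chromosome lists, with only CDKN3 filled among inhibitors, and HMGA1 and MKI67 (the probe described as Ki-67) are open and near 0.

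The 8 genes most like the mean profile of the 7 measured genes other than HMGA1, among 3926 genes well above background on all 24 arrays, were ESPL1 (separase), TK1, KIF4A, PTTG1, TCF19, TPX2, AURKA and KIFC1, with r from 0.952 to 0.930 over 24 pigs. ESPL1 kept r = 0.917 and KIFC1 0.877 without the 2 farthest pigs. These correlations are a description, and the pigs share arrays for all genes.

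The level of CDK1 was also set against 10 marker lists of liver, blood and pancreatic cell types, hepatocytes included, and against 2 measures of array quality. None passed, over 12 measures. The r farthest from 0 was -0.42, with 5 neutrophil markers of 8 listed (rho = -0.36, adjusted permutation p for r = 0.657). The mean log2 level of those markers lay between -3.31 and -1.44 in RFIneg, -3.59 and -2.53 in RFIpl, and -3.50 and -2.12 in RFIplR pigs. The share of spots well above background had r = -0.20 with CDK1 (adjusted permutation p = 0.790).

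The question of whether lines of different feed efficiency differ at free intake is addressed by RFIpl minus RFIneg. Of the 8 genes 0 passed, whereas 0.162% of all tested probes passed (limma, 48 of 29665, adjusted p below 0.05). At an unadjusted p below 0.05, 9.64% of probes passed and 0 of the 8 genes by their brightest probe. In RFIpl the mean was higher for 6 of 8 genes, and the median difference was 0.18, against 0.0036 over all probes. The genes were chosen by RFIplR minus RFIpl, which uses the same RFIpl arrays. Signs and sizes here are therefore not independent of that choice and are a description. CCNB2, which entered the test only through RFIpl, had a difference of 0.47 ± 0.29 (SE, limma adjusted p = 0.634), and without it 5 of 7 means were higher and the median was 0.054. MCM3, CDK1 and TOP2A differed by 0.37, 0.35 and 0.31, with SEs of 0.35, 0.36 and 0.32. MCM4, at 0.036 ± 0.31, and PCNA, at -0.057 ± 0.13, were close to 0 (SE). The 95% interval of the CDK1 difference ran from -0.39 to 1.09 and does not exclude a change of 2-fold.

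Whether the lines differ at the same feeding level is addressed by RFIplR minus RFIneg. Again 0 of 8 genes passed, where 0.229% of all probes did (limma, 68 of 29665), and at an unadjusted p below 0.05 the numbers were 0 of 8 and 12.8%. By the brightest probe of each gene, all 8 means were lower in RFIplR, with a median difference of -0.27 against -0.0053 over all probes. CCNB2, which entered the test only through RFIpl, was well above background in 3 of 8 RFIneg and 4 of 8 RFIplR pigs. Without it 7 of 7 means were lower and the median was -0.34. The dimmer CCNB2 probe, A_72_P775809, had a difference of 0.60 in measured signal. The choice of the genes used the same RFIplR arrays, so these signs are not independent of it and are a description. MCM3, MCM4, CDK1, CCNB2 and TOP2A also varied together from pig to pig, so the 8 signs are not 8 separate observations. MCM4 had the largest difference, -0.59 ± 0.31 (SE, limma adjusted p = 0.431), with 6 of 8 RFIplR pigs below the RFIneg mean. CDK1 was at -0.38 ± 0.36, MCM3 at -0.34 ± 0.35, PCNA at -0.19 ± 0.13 and CCNB2 at -0.055 ± 0.29 (SE). RFIplR pig 5 weighed on these values: without it the CDK1 difference was -0.66 and the MCM4 difference -0.80, and neither passed (limma adjusted p = 0.324 and 0.188). Without RFIplR pig 7 the CDK1 difference was -0.19 and that of TOP2A 0.0014.

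The effect of restriction within the high RFI line, RFIplR minus RFIpl, is the difference by which the genes had been chosen, and it shares the RFIpl arrays with the first comparison and the RFIplR arrays with the second. By the brightest probe of each gene, all 8 genes had a lower mean in RFIplR, with a median difference of -0.51 against -0.011 over all probes. On scan day 1 alone MKI67, at 0.033, and HMGA1, at 0.045, had the other sign. In this comparison 0% of all tested probes passed (limma, 0 of 29665) and 5.37% had an unadjusted p below 0.05. CDK1 was lower by 1.66-fold (-0.73 ± 0.36), MCM3 by 1.64-fold (-0.71 ± 0.35), MCM4 by 1.55-fold (-0.63 ± 0.31) and TOP2A by 1.42-fold (-0.50 ± 0.32, all SE). CCNB2, well above background in only 4 of 8 RFIplR pigs and tested through RFIpl alone, had a difference of -0.53 ± 0.29 (SE) in measured signal, and without it the median of the other 7 was -0.50. The dimmer CCNB2 probe, A_72_P775809, had 0.013. PCNA and MKI67 lay at -0.13 and -0.10. For CDK1, 7 of 8 RFIplR pigs were below the RFIpl mean, and pig 5 was above every RFIpl pig.

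The size of that difference varied with the scan day and with single pigs. The CDK1 difference was -1.02 ± 0.26 among the pigs scanned on day 1 and -0.30 ± 0.70 among those scanned on day 2 (SE). The median over the 8 genes was -0.77 and -0.27. Groups were not evenly spread over the days: of RFIplR, day 2 held only pigs 3, 5 and 7. Over both days the CDK1 difference was -1.01 without pig 5 and -0.53 without pig 7. Over all single pigs left out, the median of the 8 genes stayed between -0.74 and -0.38. Beside these genes, 9 of 9 measured T and NK cell markers, of 16 listed, also had a lower mean in RFIplR than in RFIpl, by a median of 0.083. Over all probes 53.1% were lower. The mean log2 level of those markers lay between -1.87 and -1.01 in RFIpl and between -2.07 and -1.11 in RFIplR pigs, after -1.87 to -1.12 in RFIneg. Within groups it had r = -0.14 with CDK1 (adjusted permutation p = 0.790), and the part of these cells in the difference was not tested. Other marker lists also differed between RFIplR and RFIpl: the median was -0.33 over 3 measured erythroid markers of 11, 2 of them lower, and -0.33 over 2 pancreatic acinar markers of 9, both lower. Cholangiocyte markers, 6 measured of 8, had a median of 0.21 with 4 higher, and neutrophil markers one of 0.21 with 3 of 5 higher. Stellate cell and fibroblast markers had a median of -0.14 with 6 of 8 lower, and hepatocyte markers one of -0.044 with 6 of 7 lower. Of endothelial markers 6 of 9 were lower, of B and plasma cell markers 3 of 4, and of macrophage markers 1 of 4. Mean log2 levels of the erythroid markers lay between -3.69 and -2.04 in RFIpl and between -3.89 and -2.67 in RFIplR pigs. The part of these other cell types was not tested either.

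The wider cell cycle lists held 144 genes, of which 65 were measured, the 8 genes included. In RFIpl minus RFIneg and in RFIplR minus RFIneg 0 of them passed (limma, adjusted p below 0.05), where 4 and 5 of the 65 had an unadjusted p below 0.05, against 9.64% and 12.8% of all probes. Of the 57 that were not among the chosen genes, 35 had a higher mean in RFIpl than in RFIneg, as did 51.0% of all probes, and 36 a lower mean in RFIplR than in RFIneg, as did 51.3%. Between RFIplR and RFIpl, 40 of the 57 were lower in RFIplR, with a median of -0.11, where 53.1% of all probes were. By role, and with the chosen genes left out, 13 of 13 genes of chromosome structure and spindle were lower in RFIplR (median -0.22), as were 7 of 10 mitotic regulators (median -0.20), 5 of 7 DNA synthesis genes (median -0.20) and 7 of 10 G1 genes (median -0.051). Of the 13 genes 9, and of the 10 mitotic regulators 5, were correlated with CDK1 from pig to pig. Their signs are therefore not separate observations from those of the chosen genes. Licensing genes were split, with 2 of 4 lower, and so were cell cycle inhibitors, with 5 of 10 lower. Of 3 other high mobility group genes 1 was lower.

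Of these lists, 7 genes were named whatever their values. In RFIplR minus RFIpl, CCNB1 stood at -0.47 ± 0.33, AURKA at -0.29 ± 0.22, MCM5 at -0.37 ± 0.24 and MCM6 at -0.31 ± 0.13 (SE). CDK4 stood at 0.078 ± 0.062, CDKN1A at -0.018 ± 0.22 and HMGB2 at -0.084 ± 0.079 (SE). MCM6 was the helicase gene with the smallest unadjusted p in RFIpl minus RFIneg, at 0.39 ± 0.13 (SE, unadjusted p = 0.00578, limma adjusted p = 0.287).

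HMGA1 was read by 3 probes that did not give the same picture. A pair of them, A_72_P443746 and A_72_P706134, which the scanner output places on different HMGA1 transcripts, were highest in RFIpl and lowest in RFIplR. The brightest probe, A_72_P073331, starts at 1567 of the transcript on which A_72_P706134 starts at 454, and it varied most within groups. A_72_P443746 ran from -3.06 through -2.90 to -2.66 in RFIneg, from -2.81 through -2.64 to -2.40 in RFIpl, and from -3.26 through -3.07 to -2.88 in RFIplR. The lowest RFIpl pig was above the highest RFIplR pig, so these groups did not overlap, and RFIneg lay between and overlapped both.

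For A_72_P443746, RFIplR minus RFIpl was -0.45 ± 0.077 (SE), a 1.36-fold lower mean. Groups did not overlap for 0.027% of all tested probes in that comparison, 8 of 29665, and for 0.0101% with RFIplR lower. This is the contrast by which the gene was chosen and is given as a description. RFIpl minus RFIneg was 0.24 ± 0.077 (SE, unadjusted p = 0.0040, limma adjusted p = 0.253), with 8 of 8 RFIpl pigs above the RFIneg mean. RFIplR minus RFIneg was -0.20 ± 0.077 (SE, unadjusted p = 0.0139, limma adjusted p = 0.252), with 8 of 8 RFIplR pigs below the RFIneg mean. Both comparisons with RFIneg share arrays with the contrast by which the gene was chosen. Their unadjusted p-values and pig counts are therefore not independent of that choice.

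A_72_P706134 ran from -2.91 through -2.65 to -1.98 in RFIneg, from -2.68 through -2.25 to -1.81 in RFIpl, and from -3.12 through -2.74 to -2.02 in RFIplR, with overlap of all groups. Its differences were -0.47 ± 0.16 in RFIplR minus RFIpl, 0.31 ± 0.16 in RFIpl minus RFIneg (limma adjusted p = 0.551) and -0.16 ± 0.16 in RFIplR minus RFIneg (limma adjusted p = 0.734, all SE). These were of the same sign as those of A_72_P443746 in each comparison.

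A_72_P073331 ran from -1.39 through -0.83 to 0.34 in RFIneg, from -1.23 through -0.92 to -0.51 in RFIpl, and from -2.03 through -1.07 to -0.11 in RFIplR. Its RFIpl minus RFIneg difference was -0.16 ± 0.25 (SE, limma adjusted p = 0.879), opposite in sign to the other probes. RFIplR minus RFIneg was -0.35 ± 0.25 (SE, limma adjusted p = 0.598), and RFIplR minus RFIpl was -0.19 ± 0.25 (SE).

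The pig-to-pig pattern separated the probes in the same way. Within groups A_72_P443746 and A_72_P706134 were correlated (r = 0.709, rho = 0.650, 24 pigs, adjusted permutation p = 0.00108 and 0.00402 over 3 pairs). A_72_P073331 had r = -0.25 and -0.17 with them (adjusted permutation p = 0.405 and 0.466). None of the 3 was detectably correlated with CDK1, with r = -0.022 for A_72_P443746, -0.072 for A_72_P706134 and 0.0050 for A_72_P073331. The within-group SD of A_72_P443746, 0.14, exceeded that of only 6.39% of tested probes, whereas that of A_72_P073331, 0.53, exceeded 88.4%.

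**Figure D5:**
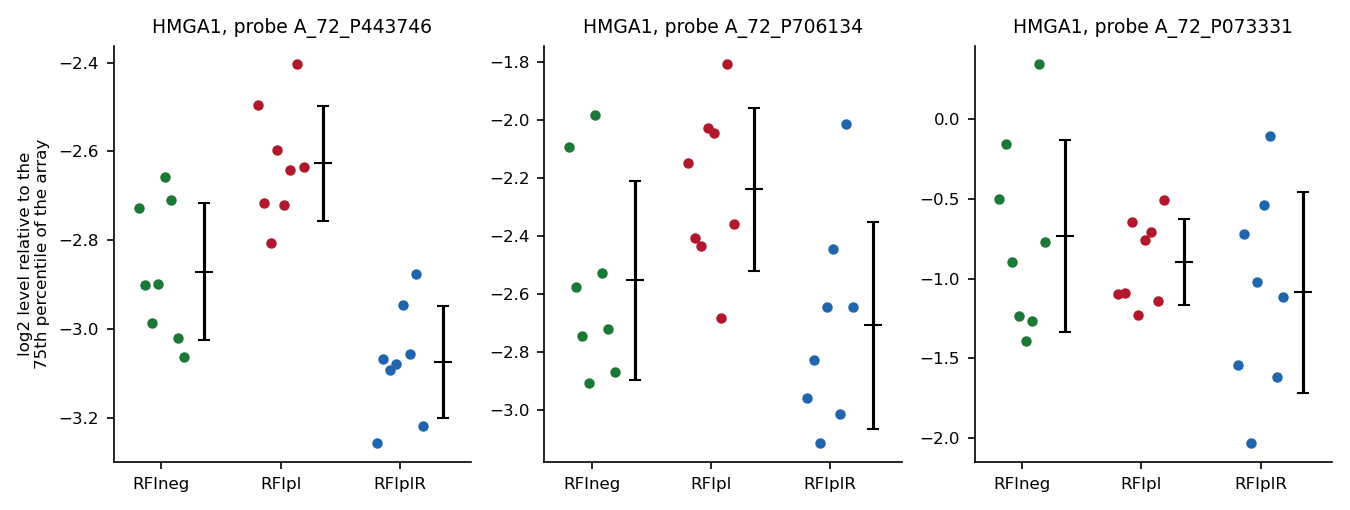
HMGA1 by probe, in log2 units relative to the 75th percentile of each array, with 1 point per pig and a bar for the mean and SD of the 8 pigs of a group; vertical scales differ between panels. On A_72_P443746 every RFIpl pig lies above every RFIplR pig, on A_72_P706134 the group means have the same order with overlap, and on A_72_P073331 the RFIneg mean is the highest.

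The genes most like each HMGA1 probe differed from probe to probe. Over 24 pigs with group means removed and 3926 genes, they were NCK2, RAB14, DUSP18, HPGD and DDX39B for A_72_P443746 (r from 0.717 to 0.674). For A_72_P706134 they were IKZF5, CWF19L1, KDM6A, GNA11 and MX2 (r from 0.850 to 0.785), and for A_72_P073331 BMP2, LSMEM2, NCOA2, AP1B1 and RABGEF1 (r from 0.654 to 0.620). None of these belonged to the cell cycle lists. Which of the probes reads HMGA1 RNA as a whole was not tested.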

How the data were processed

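Liver RNA of 24 pigs was hybridised to 1-colour Agilent arrays. Per the file headers, the deposited intensity is the processed signal of Agilent Feature Extraction 10.7.3.1, and 0 or 1 flags (another unit) deposited beside it mark spots above background or with an outlying or saturated signal. R 2.10.0 is named in the submitters' processing notes. A second file deposited by the authors lists log2 values of 27564 features, which equalled the log2 signal centred on its median over these features in each array.

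Of the scanner's spots, 1417 controls of 45220 were left out, the log2 signal was set relative to its 75th percentile per array, spots of a probe were averaged (43603 probes), and probes well above background on at least 6 of 8 arrays of 1 group were kept (29665). Pig gene tables and RefSeq (Sscrofa11.1, names only) named 12026 probes, 33 of them by description, covering 5270 symbols. A gene is represented by its probe of highest mean signal. Groups were compared with limma 3.58.1 in R 4.3.3 (lmFit, eBayes, all 24 arrays, Benjamini-Hochberg over all tested probes, adjusted p below 0.05). Correlations used Python 3.11.15 with numpy 2.4.6, pandas 2.3.3 and 100000 permutations within groups (two-sided); matplotlib 3.10.9 drew the plots. Statistics were tested on simulated data.

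The genes, the lists and the tests were chosen with earlier results of these data known. Named beside the chosen genes are 7 genes of the cell cycle lists (MCM5, MCM6, CCNB1, AURKA, CDK4, CDKN1A and HMGB2) whatever their values, the 8 genes most like the division genes and the 5 most like each HMGA1 probe. Other genes, named for their correlation with CDK1 or its lack, were chosen after their values were seen. Of 45 possible pairs of the 10 genes, 28 could be formed. Pig numbers were not used as pairs in the main tests. The residuals of same-numbered pigs had r between -0.19 and 0.42, above 0.1 in 8 of 24 pairs. Between RFIpl and RFIplR, r was 0.022, -0.036, 0.19, 0.14, 0.23, 0.19, 0.42 and -0.0086 for pigs 1 to 8. Differently numbered pigs were not compared, so whether the numbers pair these groups was not tested. Alternatives covered background correction, normalization, filters, slide, scan day, pig number, probe choice and single pigs.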

Additional observations from a re-analysis of the deposited data

How the results depend on the processing

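In RFIpl minus RFIneg and RFIplR minus RFIneg, 0 of the genes measured passed under each of 17 alternatives and with each of 24 pigs left out (7 genes in the deposited table and 6 with probes well above background on all arrays, otherwise 8), so only signs of uncalled differences moved; the cause was not tested. The median over the genes lay between 0.013 and 0.32 in the first, between -0.37 and -0.054 in the second, and between -0.77 and -0.25 in RFIplR minus RFIpl. In RFIpl minus RFIneg, normexp background correction gave MCM3 -0.014 and CCNB2 -0.088, day 2 alone gave MCM4 -0.11 and HMGA1 0.017, array weights gave MCM4 -0.00892, slide as a block gave PCNA 0.037, day 1 alone gave PCNA 0.013, and HMGA1 was 0.13 by the mean of its probes and 0.24 by its dimmest probe. In RFIplR minus RFIneg, day 2 alone gave MCM3 0.10, CDK1 0.020, CCNB2 0.39 and TOP2A 0.021, and day 1 alone gave MKI67 0.042. CCNB2 was 0.025 with slide as a block, 0.015 with scan day as a block, 0.18 without slide 3 and 0.017 without RFIplR pigs 7 and 8, where TOP2A was 0.12. With single pigs left out, MCM4 ran from -0.10 to 0.14 and PCNA from -0.12 to 0.0090 in the first comparison, and CCNB2 from -0.27 to 0.096 and TOP2A from -0.42 to 0.0014 in the second.

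Of the 28 pairs, 15 passed, and 15 with every single pig left out. Among probes well above background on all 24 arrays, 6 of the 15 pairs of the 6 genes left passed, since MCM3 and CCNB2 were no longer there. Under normexp the lowest r among the 5 division genes was 0.131 and 8 of 10 pairs passed. The genes correlated with CDK1, a count added after the data were seen, numbered 28 to 42 under the 10 alternatives and 31 to 43 with single pigs left out, against 39. With the pig number as a replicate block, 0 of 8 genes passed in both comparisons, 15 of the 28 pairs passed and 28 genes were correlated with CDK1; the numbers share no known source, and the block changed no other call. CCNB2 and MCM3 lie near background, which limits their precision.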

Other observations

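Among the cell cycle inhibitors, mentioned here after their values were seen, the antiproliferative gene BTG2 had the largest group difference in mean. RFIplR minus RFIneg was 0.93 ± 0.31 for BTG2 (SE, unadjusted p = 0.00602, limma adjusted p = 0.197) and did not pass. The stress-induced genes GADD45A and GADD45G stood at 0.32 ± 0.31 and 0.72 ± 0.45 in the same comparison (SE, limma adjusted p = 0.718 and 0.534). Within groups GADD45A had r = -0.46 with CDK1 (rho = -0.52, 24 pigs, adjusted permutation p = 0.647), and BTG2 had r = -0.29 (adjusted permutation p = 0.912).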
